A study of Mus musculus with 8 samples.

Results

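Endothelial nuclei of the mouse striatum were examined as the authors annotated them. The cluster held 851 of 55672 annotated nuclei, and its members were taken from the cluster name in the deposited table of nuclei. RNA was measured in single nuclei of striatum from 32 mice, 12 weeks old, of 8 strains. These were the wild-derived CAST/EiJ, WSB/EiJ and PWK/PhJ, and the laboratory strains C57BL/6NJ, 129S1/SvImJ, A/J, NZO/HlLtJ and NOD/ShiLtJ. The mice carried no treatment or transgene that the labels name. Each of 4 batches pooled the nuclei of 8 mice, 1 of every strain, 4 male and 4 female, and the strain of a nucleus was read from its genotype by the authors. A mouse is therefore a batch and a strain, and the sex of a single mouse was not used here. The deposited table writes C57BL/6NJ and NZO/HlLtJ where the design text writes C57BL/6J and NZO/H1LtJ, and the names of the table are kept.

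Endothelial cells line the blood vessels, and in the brain they form the blood-brain barrier. Tight junctions built from claudins such as Cldn5 seal the gaps between them, transporters such as Slc2a1 carry glucose and other nutrients across them, and ATP-driven pumps such as Abcb1a return foreign compounds to the blood. Pericytes sit on the outer side of the capillary wall, share a basement membrane with the endothelium and signal to it, and Rgs5 is commonly used as one of their markers.

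Promoters of 3 leading genes are shown because each gene is among the most specific to the cluster or checks its name. Flt1 encodes a receptor of vascular endothelial growth factor, Cldn5 the main claudin of the barrier and Slco1a4 an organic anion transporter of brain capillaries. The 250 bases before each RefSeq start site (GRCm38.p6, shown 5′ to 3′ on the strand of the gene) are in lower case, with AGGAAG or its reverse complement CTTCCT in capitals. This is a form of the core bound by ETS factors, a family that includes the endothelial regulators Erg and Fli1.
Flt1, minus strand, chr5:147726012-147726261: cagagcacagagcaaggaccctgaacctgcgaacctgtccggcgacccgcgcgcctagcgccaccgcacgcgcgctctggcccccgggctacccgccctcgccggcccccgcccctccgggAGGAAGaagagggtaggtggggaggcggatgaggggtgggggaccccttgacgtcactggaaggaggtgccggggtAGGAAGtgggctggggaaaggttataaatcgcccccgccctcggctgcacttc
Cldn5, plus strand, chr16:18776597-18776846: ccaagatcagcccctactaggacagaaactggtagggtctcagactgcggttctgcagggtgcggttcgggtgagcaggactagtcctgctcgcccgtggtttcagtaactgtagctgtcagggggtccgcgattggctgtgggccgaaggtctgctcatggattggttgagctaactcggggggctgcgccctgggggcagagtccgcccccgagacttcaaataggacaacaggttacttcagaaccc
Slco1a4, minus strand, chr6:141856221-141856470: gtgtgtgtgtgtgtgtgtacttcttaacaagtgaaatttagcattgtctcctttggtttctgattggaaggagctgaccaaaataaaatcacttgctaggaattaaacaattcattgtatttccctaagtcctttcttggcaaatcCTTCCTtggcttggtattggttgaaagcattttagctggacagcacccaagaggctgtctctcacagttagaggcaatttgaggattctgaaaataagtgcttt
The Flt1 stretch holds 2 copies of the motif, the Cldn5 stretch 0 and the Slco1a4 stretch 1. Of 32851 promoter stretches of this length, 29.5% hold at least 1 copy on either strand. The stretches of Flt1 and Cldn5 overlap a region in the authors' list of 291715 accessible regions of the whole striatum, as do 51.7% of all promoters, and that of Slco1a4 overlaps 0. Of the 15 endothelial marker genes, 12 were found in the promoter table, 10 of these overlap an accessible region and 8 hold the motif. A match of letters is a description and no evidence of binding.

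The marker genes were at their highest in the cluster named endothelium. Levels of a cluster are given as CPM, each gene's part of the pooled counts scaled to a total of 1000000. Flt1 stood at 2793 CPM in endothelium and at 4.65 CPM over all other nuclei. Cldn5 stood at 1374 against 3.92 CPM, and Pecam1, an adhesion molecule of endothelial junctions, at 397 against 2.89 CPM. At least 1 UMI (unique molecular identifier, a counted RNA molecule) of Flt1 was found in 96.0% of endothelial nuclei and in 1.02% of oligodendrocyte nuclei, at median depths of 3821 and 1640 UMIs. Of 851 nuclei, 850 held a UMI of the 15-gene endothelial list and 792 held at least 10. All 15 genes of that list were higher in endothelium than in each of the other 17 clusters.

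The 15 genes with the highest ratio of CPM in endothelium to CPM in all other nuclei included 6 transcription factor genes. They were Sox17 (ratio 804), Gata2 (696), Zfp366 (589), Sox18 (580), Foxq1 (524) and Mecom (432). Mecom was also high in the small cluster Unknown_2, at 676 CPM against 802 CPM in endothelium. Surface receptors made up another group, with Adgrl4 (793), Flt1 (601), Adgrf5 (589), and Robo4 (574). The others were the transporter Slco1a4 (769), the chemokine Cxcl12 (546), Dipk2b (591), Cyyr1 (539) and Fmo2 (469). These ratios describe genes that the clustering itself used, so no test was made.

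Genes of the barrier were described in the same way. Of 27 genes for nutrient and hormone transport, 27 reached 10 CPM in endothelium and 18 of these were highest there, among them Slc2a1 (1408 CPM, against 77.4 in astrocytes) and Mfsd2a, a lipid transporter that restrains transcytosis (194 CPM, against 75.1 in astrocytes). Of 9 genes of ATP-driven pumps, 8 reached 10 CPM and 3 were highest, with Abcb1a at 926 and Abcg2 at 581 CPM. Of 19 tight junction genes, 17 reached 10 CPM and 7 were highest there. For genes of caveolae and transcytosis the counts were 12 of 13 and 7, for Wnt and beta-catenin signalling 23 of 25 and 7, and for Notch signalling 17 of 19 and 5.
In the groups of VEGF and angiopoietin signalling, 19 of 20 genes reached 10 CPM and 11 were highest in endothelium. For TGF-beta and BMP signalling the counts were 22 of 26 and 6, for endothelial transcription factors 31 of 32 and 18, and for adhesion and leukocyte contact 18 of 21 and 12. For vascular tone and coagulation they were 18 of 25 and 5, for Ly6 and other lipid-anchored surface proteins 7 of 11 and 6, and for antigen presentation and interferon response 22 of 25 and 21. For basement membrane they were 17 of 18 and 7, and for lipid handling 17 of 23 and 4.
Genes known from arterial, capillary and venous endothelium reached 10 CPM in 16 of 18, 12 of 12 and 10 of 14 cases. Of these, 7, 8 and 5 were highest in endothelium. The same count over all genes was not made, so the counts describe these lists and show no enrichment.

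The nuclei of the cluster were not of 1 kind. For description, a nucleus was called neuron-marked where its UMIs of 10 projection neuron genes equalled or exceeded those of the 15 endothelial genes. It was called pericyte-marked where it was not neuron-marked and held at least 3 UMIs of 10 pericyte genes, a list without Rgs5 and Ebf1. Both rules were set after the data had been seen. By them 443 nuclei (52.1%) carried neither mark, 186 (21.9%) were pericyte-marked and 222 (26.1%) were neuron-marked. The unmarked nuclei were shallow, with a median of 1538 UMIs, and held 23.9% of the counts, while pericyte-marked nuclei had a median of 6504 and neuron-marked nuclei of 7123 UMIs. Some nuclei lay close to a rule: in 89 the neuronal UMIs were within a factor of 2 of the endothelial ones, and 40 had 2 or 3 pericyte UMIs.

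Endothelial genes summed to 15158 CPM in unmarked nuclei and to 14496 CPM in pericyte-marked nuclei. In neuron-marked nuclei the same genes summed to 2713 CPM and the neuronal genes to 7063 CPM, against 6672 CPM over all nuclei outside the cluster. The neuron-marked rule compares these same lists, so the order of their sums in each kind follows from the rule and is no result. The mitochondrial share was 5.17% in unmarked, 6.57% in pericyte-marked and 1.85% in neuron-marked nuclei. Of unmarked nuclei 50.3% (95% exact binomial interval 45.6 to 55.1) were listed in the authors' accessibility index, of pericyte-marked nuclei 90.3% (85.1 to 94.2) and of neuron-marked nuclei 33.8% (27.6 to 40.4). These shares pool batches that differ, with 83.1% of endothelial nuclei listed in batch 4 and at most 47.8% in the others. In batches 1 to 4 the share of unmarked nuclei was 35.7, 30.6, 34.6 and 95.9%, and that of neuron-marked nuclei was 17.0, 34.8, 44.8 and 33.3%, so that these kinds had no single order. Pericyte-marked nuclei had the highest share in batches 1, 2 and 4 (88.0 to 97.3%), and batch 3 held 1 of them. Among Drd1+ neurons the listed share was 95.4%, among astrocytes 84.6%, among oligodendrocytes 77.4%, among macrophages 72.7% and among fibroblasts 57.6%. Over the whole endothelium cluster it was 54.8%, and in the mural cluster it was lower than that. A low share was therefore not particular to endothelium. No further doublet caller was run, and the part of doublets or of free RNA in these mixed profiles was not tested.
Oligodendrocyte genes summed to 4298 CPM in unmarked nuclei, against 3461 CPM over all nuclei outside the cluster and 4106 CPM in astrocytes, and their part in the results was not tested. Astrocyte genes summed to 1345 CPM there, against 11052 CPM in astrocytes, and macrophage genes to 194 CPM. In the whole cluster the list of precursors stood at 104 CPM and that of ependymal cells at 62.0 CPM. The fibroblast list stood at 110 CPM, against 27.7 CPM over all nuclei outside the cluster, and at 258 CPM in pericyte-marked nuclei. The smooth muscle list stood at 314 CPM, against 381 CPM in the mural cluster, and at 772 CPM in pericyte-marked nuclei. The part of these cells in the results was not tested.

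**Figure D1:**
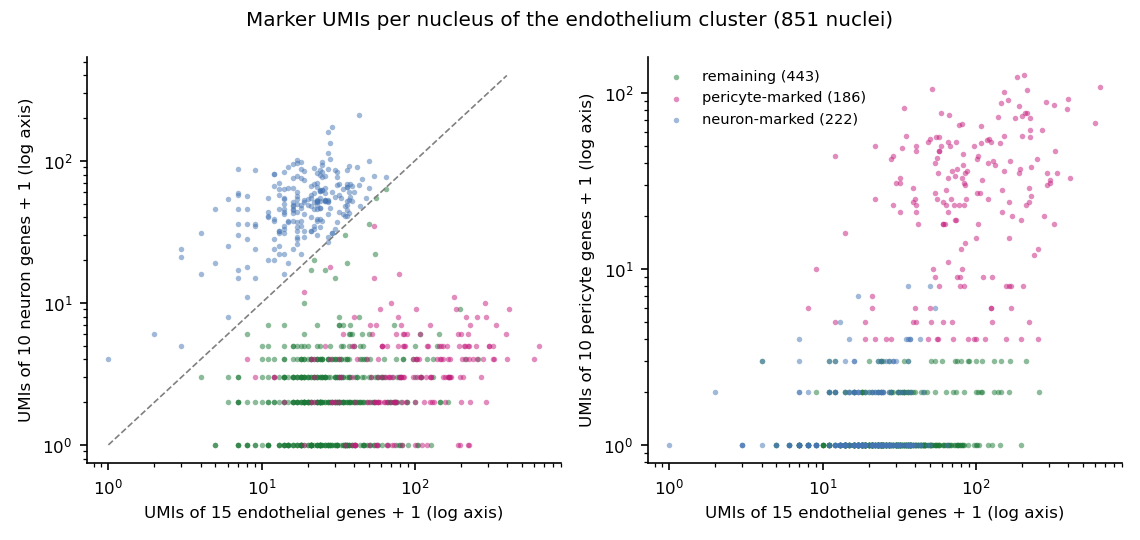
Each point is 1 of 851 nuclei, with UMIs of the 15 endothelial genes on the x axis and UMIs of 10 projection neuron genes (left) or of 10 pericyte genes without Rgs5 and Ebf1 (right) on the y axis, all plus 1 on log axes. The dashed line marks equal UMIs, and the 222 neuron-marked nuclei lie on or above it by their rule. Green points, called remaining in the key, are the 443 unmarked nuclei.

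Rgs5 behaved unlike the other pericyte genes. It stood at 1854 CPM in the endothelium cluster and at 403 CPM in the mural cluster. Most other pericyte genes had the opposite order: Vtn stood at 731 CPM in endothelium and 2692 CPM in the mural cluster, Atp13a5 at 202 and 1250, Pdgfrb, the receptor through which endothelium recruits pericytes, at 119 and 662, and the potassium channel subunits Kcnj8 and Abcc9 at 40.6 and 149 and at 108 and 374 CPM. Higd1b was the other gene of the list that was higher in endothelium, at 81.9 against 60.8 CPM. Projection neuron genes summed to 5910 CPM in the mural cluster, against 3126 CPM in the endothelium cluster and 946 CPM in its unmarked nuclei, and neuron-marked nuclei were not taken out of the mural cluster. The part of this neuronal RNA in the levels of the mural cluster was not tested.
Within the cluster Rgs5 followed the other pericyte genes but did not vanish without them. In the 158 nuclei with 6 or more UMIs of other pericyte genes it reached 4217 CPM. In all 514 nuclei with 0 such UMIs it stood at 410 CPM, close to the 403 CPM of the mural cluster. In the 357 of them that were not neuron-marked it stood at 912 CPM, and 113 of these held at least 1 Rgs5 UMI at a median depth of 1441 UMIs. In oligodendrocytes 0.995% of nuclei held an Rgs5 UMI at a median depth of 1640, with 6.82 CPM.

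**Figure D2:**
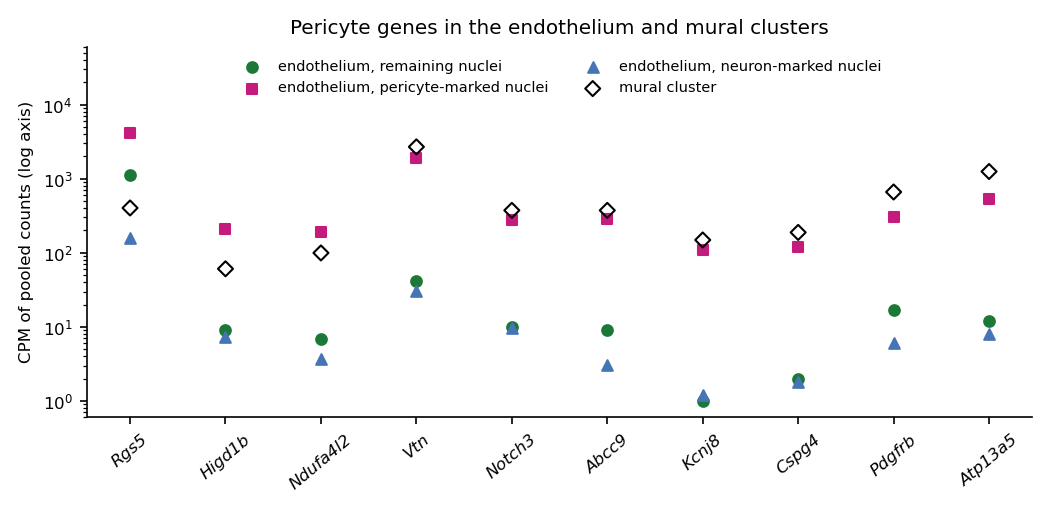
CPM of pooled counts (log axis) of 10 pericyte genes in the 3 kinds of endothelial nuclei (unmarked nuclei are called remaining in the key) and in the mural cluster. Rgs5 stands at 1122 CPM in unmarked endothelial nuclei and at 403 CPM in the mural cluster, from which no neuron-marked nuclei were removed, while Vtn, Notch3, Abcc9, Kcnj8, Cspg4, Pdgfrb and Atp13a5 are highest in the mural cluster.

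Batch 3 stood apart. It held 120 endothelial nuclei against 201 to 306 in the other batches, and 67 of its 120 were neuron-marked while 1 was pericyte-marked. In the other batches 20.9 to 21.6% were neuron-marked and 18.4 to 29.0% were pericyte-marked. The nuclei of batch 3 that were not neuron-marked were also the shallowest, with a median of 1019 UMIs against 2088 to 2995, and a mark of at least 3 pericyte UMIs is harder to reach at low depth. Per count, pericyte genes other than Rgs5 and Ebf1 summed to 227 CPM in these nuclei and to 2399 to 2882 CPM in the other batches. Rgs5 stood at 217 CPM in batch 3 and at 1494 to 2251 CPM in the others, and Flt1 at 1166 CPM against 2578 to 3249 CPM. In unmarked nuclei alone Flt1 no longer differed in this way (3973 CPM in batch 3, 3656 to 4426 in the others), whereas Rgs5 remained lowest in batch 3, at 595 against 930 to 1338 CPM. Cldn5 in unmarked nuclei was highest in batch 3, at 2929 against 1756 to 2197 CPM. Flt1 and Cldn5 belong to the list by which nuclei were marked and Rgs5 does not, so their levels there depend in part on the rule. The Rgs5 value of batch 3 comes from 52 unmarked nuclei, most of which held no Rgs5 UMI. Over all endothelial nuclei of batch 3 the mitochondrial share was 2.11% against 4.57 to 4.73%, and Malat1, a nuclear non-coding RNA, stood at 50145 against 21033 to 29301 CPM. Rgs5 was lowest in batch 3 in the mural cluster too, at 174 against 407 to 549 CPM. The part of depth, of the mitochondrial share and of these other differences in the values of batch 3 was not tested. Among the 851 endothelial nuclei, 0 had a barcode that occurred in more than 1 batch. Over all annotated nuclei 1517 barcodes occurred in more than 1 batch. Barcodes that endothelial nuclei share with nuclei of other clusters in another batch were not counted.

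**Figure D3:**
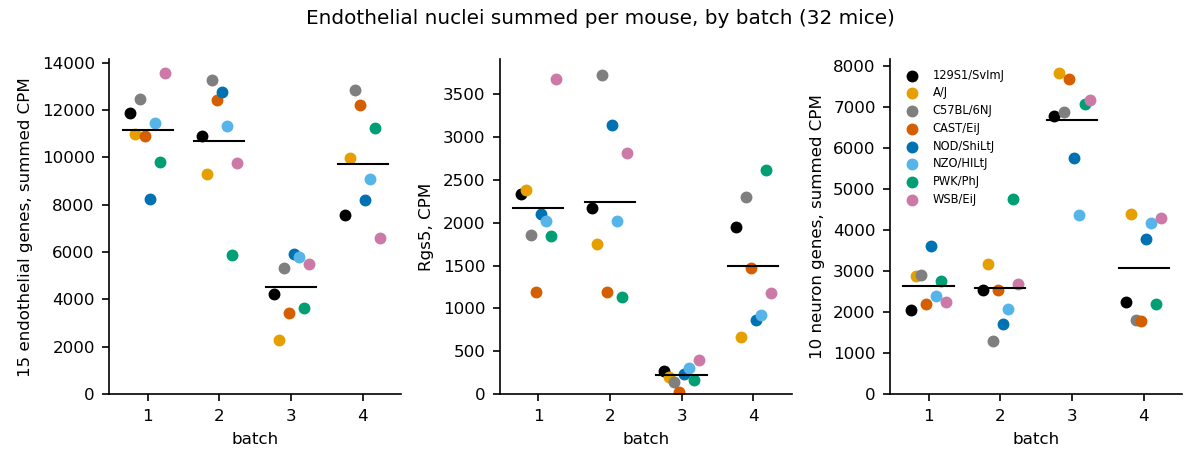
Each point is a mouse, coloured by strain, and bars are means of the 8 mice of a batch, for the summed CPM of 15 endothelial genes, Rgs5 CPM and the summed CPM of 10 projection neuron genes, all without scaling between libraries. The 8 mice of batch 3 are the lowest for Rgs5, with a highest value of 394 CPM.

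To ask whether strains differ in how much endothelium was sampled, nuclei were counted per mouse. A mouse gave 26.6 ± 14.6 endothelial nuclei (SD, n = 32), from 6 to 90, and the highest was the A/J mouse of batch 2. The share of endothelium among the annotated nuclei of a mouse was 1.50% ± 0.506 (SD, n = 32). By strain it ran from 1.27% ± 0.355 in PWK/PhJ to 1.78% ± 0.636 in 129S1/SvImJ (SD, n = 4 each), and the 129S1/SvImJ mouse was above the PWK/PhJ mouse in 4 of 4 batches. No difference between strains was detected in a permutation test of the F statistic within batches (p = 0.668). The median UMIs per endothelial nucleus of a mouse was 3809 ± 1073 (SD, n = 29 mice with at least 10 nuclei), with p = 0.238 for strain by the same permutation test and p = 0.0156 without batch 3. The log2 ratio of pericyte to endothelial list counts did not differ detectably either (permutation p = 0.912, and 0.28 with values centred within batch). It averaged -2.41 ± 0.305 over the 5 mice of batch 3 with at least 10 nuclei, and -1.24 ± 0.241, -1.18 ± 0.350 and -1.27 ± 0.511 over the 8 mice of batches 1, 2 and 4.

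Gene expression was compared between strains on counts summed per mouse. The A/J, CAST/EiJ and WSB/EiJ mice of batch 3 had 7, 8 and 6 nuclei and were left out, which leaves 29 mice. Means of these 3 strains therefore hold no mouse of batch 3, while those of the other strains do. Per-mouse levels below are CPM over TMM-scaled library totals. A batch holds 1 mouse of a strain, so strains cannot be tested within a batch, and batch was a term of the model. Of 4986 genes, 161 (3.23%) differed between strains at an adjusted p under 0.05 by edgeR's quasi-likelihood test with Benjamini-Hochberg adjustment. Without the neuron-marked nuclei 217 of 3699 genes (5.87%) passed, 106 of them also called with all nuclei. That fit used 27 mice, as the 129S1/SvImJ and PWK/PhJ mice of batch 3 kept 7 and 4 nuclei and were left out too. The parts of the nuclei, the mice and the genes tested in this change were not separated. With unmarked nuclei alone 26 of 1196 (2.17%) passed, 15 of them also called with all nuclei. All reads were counted on 1 reference genome, so a difference in RNA level and a difference in how well the reads of a strain match that reference cannot be told apart.

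Genes of the Ly6 family encode small surface proteins, many of them held in the membrane by a lipid anchor. Of 7 tested genes on the list of these and other lipid-anchored surface proteins 5 passed (Ly6a, Ly6c1, Ly6c2, Ly6e and Cd59a), beside 3.23% of all genes, and 6 of 6 passed without neuron-marked nuclei. The added gene was Bst2 (adjusted p = 0.0331, and 0.112 with all nuclei), a restriction factor that is not of the Ly6 family and is also on the interferon list. The median distance between the highest and lowest strain was 2.38 on the log2 scale, against 0.91 over all tested genes. The list was chosen with earlier results of these data known, so these values describe its genes and are no test of the family.
Ly6a, also known as Sca-1 and used as an entry receptor by some AAV vectors designed for the mouse brain, fell into 2 sets of strains. In C57BL/6NJ its 4 mice had 1554, 2119, 1157 and 1430 CPM in batches 1 to 4, and in WSB/EiJ 3 mice had 1506, 1347 and 1202 CPM. In 129S1/SvImJ the values were 2366, 2018, 516 and 1049 CPM, the third from batch 3. The other 5 strains had means from 363 to 440 CPM, and their highest single mouse had 664 CPM. Apart from the 129S1/SvImJ mouse of batch 3, the 2 sets of mice did not overlap. The sets were drawn from these same levels, so their separation is a description and no test. The strain term passed with all nuclei (adjusted p = 1.56e-06) and with unmarked nuclei alone (adjusted p = 1.49e-05).
Ly6c1, the member with the highest level in this cluster, was low in 1 strain. WSB/EiJ mice had 138, 112 and 570 CPM in batches 1, 2 and 4, and the other 26 mice had 1234 to 4826 CPM with a median of 2626. The groups did not overlap, which the rule for naming genes of a single strain requires. WSB/EiJ fell by 3.56 on the log2 scale against the other 7 strains (adjusted p = 4.24e-07), it fell by 7.36 without neuron-marked nuclei (adjusted p = 6.80e-06), and it fell by 5.75 in unmarked nuclei alone (adjusted p = 9.34e-06). Without pericyte-marked nuclei it fell by 2.42 (adjusted p = 1.55e-07), and with 1 batch left out it fell by 3.14 to 4.60, so the size depends on which nuclei and mice are counted.
Ly6c2, a near-identical neighbour of Ly6c1, was seen almost only in CAST/EiJ, with 152, 182 and 132 CPM against a median of 0 and a highest value of 53.4 CPM in the other 26 mice. Such a gap is required by the same naming rule. Ly6c1 of CAST/EiJ was 2462 CPM ± 135 (SD, n = 3), inside the range of the other strains. Reads of such copies can be split between them by the counting, so the balance of the pair is uncertain.
Ly6e, another family member, ran from 283 CPM ± 43.4 (SD, n = 3) in CAST/EiJ to 1024 CPM ± 395 (SD, n = 4) in C57BL/6NJ (adjusted p = 0.000399), with ranges of 236 to 321 and 534 to 1489 CPM. Cd59a, an inhibitor of complement attack, was highest in NOD/ShiLtJ at 248 CPM ± 102 (SD, n = 4) and lowest in PWK/PhJ at 49.2 CPM ± 21.7 (SD, n = 4; adjusted p = 7.26e-05). Ly6e passed with unmarked nuclei alone (edgeR adjusted p = 0.00051), whereas Cd59a passed neither there (0.205) nor without pericyte-marked nuclei (0.141).

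The 12 genes with the largest F statistic included 7 whose mean was highest in CAST/EiJ, a strain derived from wild mice of another subspecies than most laboratory strains. Of these 12, 11 could be tested without neuron-marked nuclei and 11 passed, and 8 could be tested in unmarked nuclei and 7 passed. Ftl1-ps1 was the one that did not, with an adjusted p of 0.122.
Ctla2a, an inhibitor of cysteine proteases, stood at 669 CPM in the endothelium cluster and 6.33 CPM in astrocytes. CAST/EiJ mice had 3005, 3971 and 2086 CPM, and the other 26 mice at most 947 CPM (adjusted p = 1.09e-09). The near copy Ctla2b can share its reads.
Pmaip1, which encodes the pro-apoptotic protein Noxa, stood at 337, 554 and 233 CPM in the CAST/EiJ mice, while no other mouse exceeded 81.4 CPM (adjusted p = 6.37e-11). Over all strains it was at 52.5 CPM in endothelium, 0 in astrocytes and 0.0769 CPM in Drd1+ neurons.
Prorp, a subunit of the nuclease that trims mitochondrial tRNAs, ranged from 210 to 474 CPM over the CAST/EiJ mice, with 87.8 CPM in the highest of the others (adjusted p = 1.62e-09). The unnamed transcript B530045E10Rik had 255 to 466 CPM there and a median of 0 elsewhere (adjusted p = 8.54e-12). The ferritin pseudogene Ftl1-ps1, whose reads cannot be told with certainty from those of Ftl1, was high in CAST/EiJ (395 CPM ± 32.9, SD, n = 3) and in PWK/PhJ (257 CPM ± 138, SD, n = 4), with at most 86.8 CPM in mice of other strains.
Nxpe4, of the neurexophilin and PC-esterase family, split the strains in another way. CAST/EiJ had 463, 517 and 405 CPM, C57BL/6NJ had 387, 408, 338 and 289 CPM, and WSB/EiJ had 263, 270 and 124 CPM. The other 5 strains had means from 30.7 to 86.0 CPM, with 182 CPM in the highest mouse (adjusted p = 4.18e-11). In unmarked nuclei alone the adjusted p was 1.49e-05.
Itih5, which encodes a protein of the hyaluronan matrix and is on the capillary list, stood at 240 CPM in endothelium and at 1355 CPM in fibroblasts. Over strains it was highest in 129S1/SvImJ (424 CPM ± 209, SD, n = 4), NOD/ShiLtJ (407 CPM ± 115) and C57BL/6NJ (392 CPM ± 217). It was lowest in CAST/EiJ (53.2 CPM ± 24.3, SD, n = 3) and PWK/PhJ (76.2 CPM ± 54.4, SD, n = 4). The batch 3 mice of 129S1/SvImJ and C57BL/6NJ, at 121 and 71.2 CPM, overlapped the low strains (strain term, adjusted p = 4.17e-09).
Gsta4, a glutathione transferase that detoxifies products of lipid peroxidation, was high in C57BL/6NJ (185 CPM ± 79.3, SD, n = 4) and 129S1/SvImJ (171 CPM ± 134, SD, n = 4), and each other strain averaged at most 41.8 CPM (adjusted p = 5.31e-08). The 129S1/SvImJ mouse of batch 3, at 15.2 CPM, lay within the low strains. Without pericyte-marked nuclei the gene did not pass (edgeR adjusted p = 0.0835).
Cwc22, a splicing factor, stood at 1444, 1459 and 1562 CPM in WSB/EiJ and at most at 263 CPM elsewhere (adjusted p = 4.39e-19). Over all strains it stood at 183 CPM in endothelium and 226 CPM in Drd1+ neurons.
As for Itih5, Cwc22 and B530045E10Rik (138 CPM in the cluster Unknown_2, 36.6 in endothelium), the last 3 of the 12 were higher in another cluster. Frmd5 was highest in oligodendrocytes (2825 CPM, against 408 in endothelium), AC149090.1 in the cluster Unknown_2 and Catspere1 in the second Drd1+ cluster. In endothelial sums Frmd5 was highest in CAST/EiJ (1083 CPM ± 72.1, SD, n = 3). Over batches 1, 2 and 4 PWK/PhJ was close to it (1066 CPM ± 379, SD, n = 3). AC149090.1 (1140 CPM ± 320) and Catspere1 (170 CPM ± 89.4) were highest in PWK/PhJ (SD, n = 4). Of these Catspere1 was 3.85 CPM in pericyte-marked and 63.8 CPM in neuron-marked nuclei, and it was not among the genes tested without the latter. AC149090.1 stood at 615 CPM in neuron-marked, 280 CPM in unmarked and 146 CPM in pericyte-marked nuclei. It passed without neuron-marked nuclei (edgeR adjusted p = 1.97e-08).

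**Figure D4:**
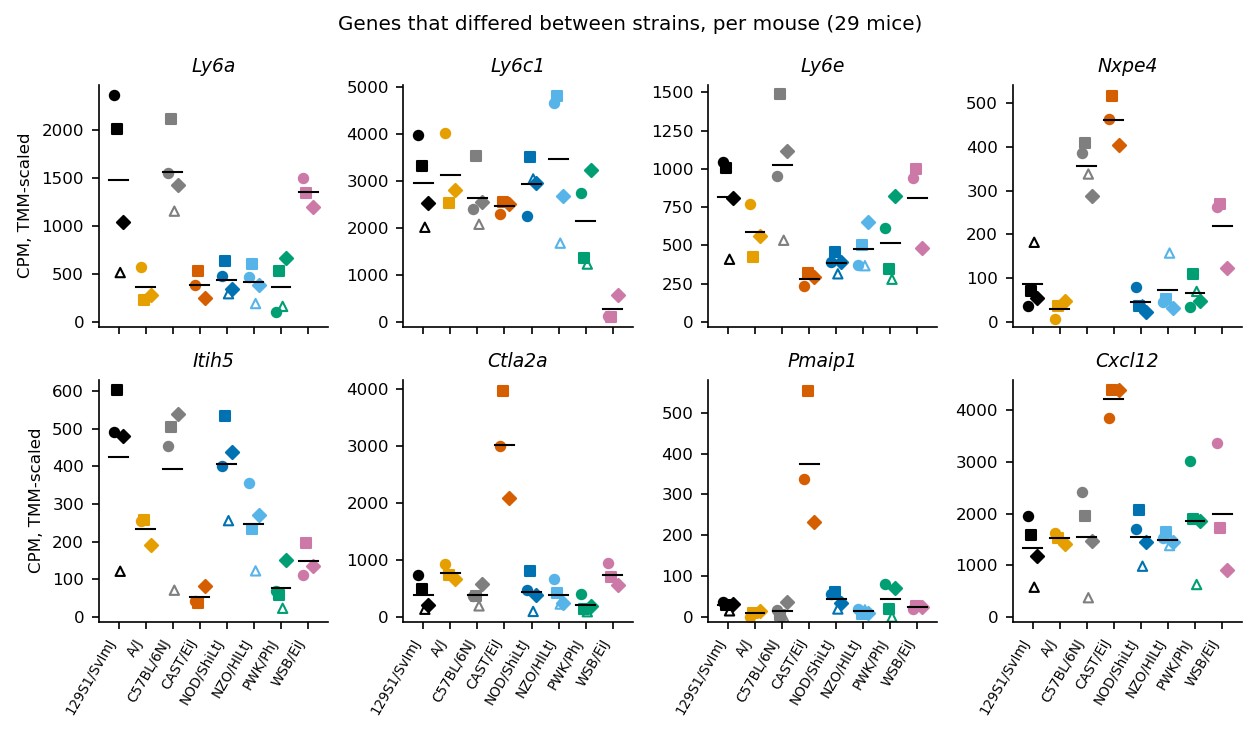
CPM (TMM-scaled) of 8 genes that passed the strain term, 1 point per mouse (29 mice), with strains on the x axis, bars at strain means, circles for batch 1, squares for batch 2, open triangles for batch 3 and diamonds for batch 4. Ly6c1 is low in the 3 WSB/EiJ mice (112 to 570 CPM), and Ctla2a, Pmaip1 and Cxcl12 are highest in the 3 CAST/EiJ mice.

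Across the 18 groups of vascular genes, 224 distinct genes were tested and 20 passed (8.93%), and without neuron-marked nuclei 37 of 212 passed (17.5%), 18 of them in both. The share over all genes was 3.23% and 5.87%. The groups were chosen with earlier results of these data known, so the difference in shares is no test of the groups.
Among transport genes 2 of 23 passed. Lrp8, a receptor for apolipoprotein E and reelin, was highest in CAST/EiJ, with 269, 408 and 304 CPM against at most 227 CPM in other mice (adjusted p = 0.00248). Tfrc, the transferrin receptor through which iron crosses the barrier, ran from 219 CPM ± 85.7 in 129S1/SvImJ (SD, n = 4) to 605 CPM ± 139 in CAST/EiJ (SD, n = 3; adjusted p = 0.0465), and did not pass without batch 3 (adjusted p = 0.219).
Of the pumps 0 of 6, of tight junction genes 0 of 14 and of transcytosis genes 0 of 12 passed. The core barrier genes did not differ detectably: Slc2a1 had an adjusted p of 0.497 and strain means from 1104 to 2473 CPM, Slco1a4 0.851 (1892 to 3163 CPM), Abcb1a 0.814 (784 to 1432 CPM), Mfsd2a 0.736 (163 to 275 CPM) and Abcg2 0.429 (476 to 1041 CPM). A missed threshold does not show equal levels. CAST/EiJ had the highest mean for each of these 5 genes, over all mice and over batches 1, 2 and 4 alone. Cldn5 was lowest in PWK/PhJ, at 973 CPM ± 432, and highest in NZO/HlLtJ, at 1975 CPM ± 324 (SD, n = 4 each; over batches 1, 2 and 4 C57BL/6NJ was highest, at 2180 CPM), with an adjusted p of 0.174. It was 0.0454 with DESeq2 on the same mice and 0.885 with no replicate block, 0.0483 without neuron-marked nuclei, 0.0808 without pericyte-marked nuclei, 0.401 in unmarked nuclei alone and 0.418 without batch 3. PWK/PhJ also had the highest share of neuron-marked nuclei (35.4%, against 22.2 to 30.0% in the other strains). CAST/EiJ had the lowest such share (22.2%) and the highest share of pericyte-marked nuclei (27.2%, against 18.7 to 24.5%). These shares include the mice left out of the fit. The mean of PWK/PhJ for the endothelial list was the lowest of the strains, at 7644 CPM ± 3502 (SD, n = 4). The list means are CPM without TMM scaling and include the mice left out of the fit, so they are not on the scale of the Cldn5 levels. The part of the neuron-marked and pericyte-marked shares in levels by strain was not tested.

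**Figure D5:**
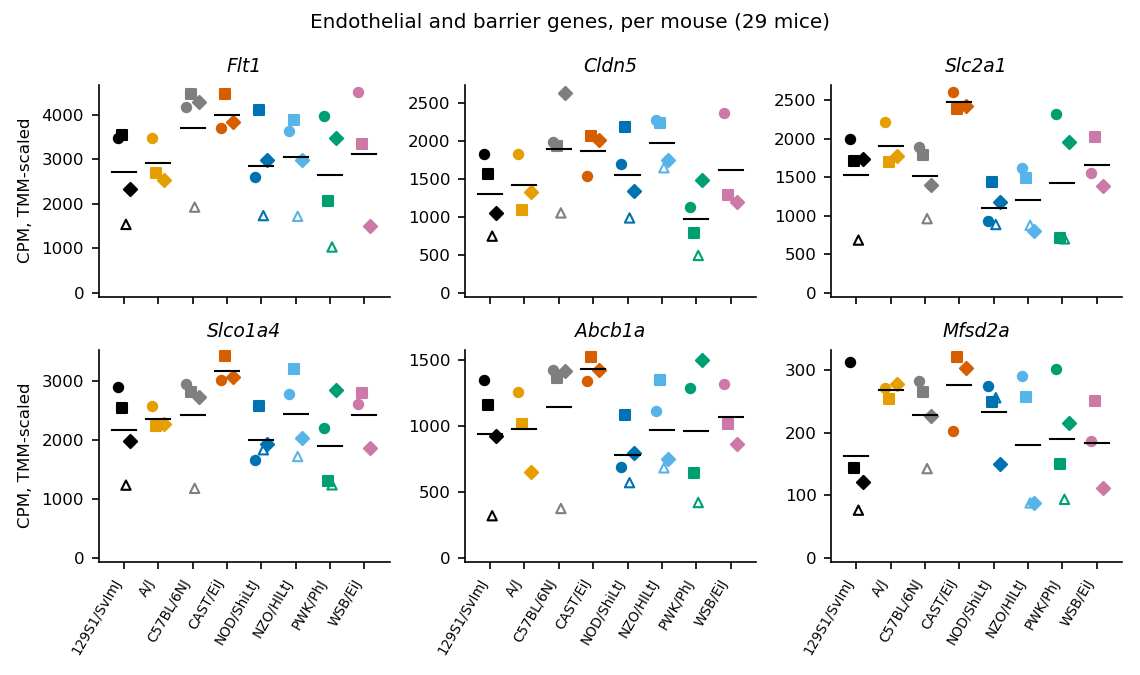
CPM (TMM-scaled) of Flt1 and 5 barrier genes, 1 point per mouse (29 mice), with the same marks as for the genes that differed between strains. Strains overlap, and the open triangles (batch 3) are the lowest Flt1 and Cldn5 points in each strain that has one.

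Of matrix genes 1 of 15 passed. Sparc, a collagen-binding protein of the vascular matrix, was 3039 CPM ± 156 in CAST/EiJ (SD, n = 3; 2862 to 3159) and 795 CPM ± 389 in PWK/PhJ (SD, n = 4; adjusted p = 0.0102).
Of capillary genes 3 of 12 passed, Itih5, Cxcl12 and Ivns1abp. Cxcl12, the chemokine that binds Cxcr4, had 3856, 4393 and 4385 CPM in CAST/EiJ, and the other 26 mice had at most 3365 CPM (adjusted p = 0.0251). Ivns1abp, an actin-binding protein, was highest in PWK/PhJ (600 CPM ± 159, SD, n = 4) and WSB/EiJ (546 CPM ± 114, SD, n = 3; adjusted p = 0.00422).
Of arterial genes 2 of 14 passed. Vegfc, a growth factor of lymphatic vessels, was lowest in WSB/EiJ (17.4 CPM ± 9.56, SD, n = 3; adjusted p = 0.0214), and Alpl, alkaline phosphatase, in PWK/PhJ (11.4 CPM ± 9.85, SD, n = 4; adjusted p = 0.0375). Both lows rest on few UMIs, as WSB/EiJ mice in the fit had 97940 to 175837 counts and PWK/PhJ mice 53794 to 141012. Of venous genes 1 of 8 passed, Vwf, which carries clotting factor VIII, with 354 CPM ± 45.0 in CAST/EiJ (SD, n = 3) and 86.7 CPM ± 38.4 in NZO/HlLtJ (SD, n = 4; adjusted p = 0.0365). Over batches 1, 2 and 4 alone the lowest Vwf mean was that of NOD/ShiLtJ, at 88.1 CPM, against 98.0 CPM in NZO/HlLtJ.
Plat, the tissue plasminogen activator that starts the dissolving of clots, was 1 of 9 tested genes of vascular tone and coagulation to pass. Its CAST/EiJ mice had 404, 444 and 314 CPM, and the other mice at most 264 CPM (adjusted p = 0.000786).
Of antigen presentation and interferon genes 2 of 14 passed, B2m (adjusted p = 0.0119) and Ly6e. B2m, the shared light chain of class I molecules, was highest in C57BL/6NJ (1168 CPM ± 506, SD, n = 4) and lowest in CAST/EiJ (500 CPM ± 130, SD, n = 3). Without neuron-marked nuclei 5 of 14 passed, and H2-K1 was added, with 389 CPM ± 120 in C57BL/6NJ and 126 CPM ± 25.8 in 129S1/SvImJ over all nuclei (SD, n = 4 each). The class I genes are near-identical copies that vary in sequence between strains, so H2-K1 is uncertain.
In the other groups the counts were 1 of 13 for VEGF and angiopoietin signalling (Vegfc), 1 of 19 for Wnt and beta-catenin signalling (the receptor Fzd6), 0 of 11 for Notch, 0 of 17 for TGF-beta and BMP, 1 of 28 for transcription factors (Klf6, which responds to flow), 2 of 15 for adhesion (Cd34 and Vwf) and 2 of 11 for lipid handling (Lrp8 and the monoglyceride lipase Mgll). Without neuron-marked nuclei (27 mice) the count for transcription factors was 5 of 28, with Ets1, Lmo2, Sox17 and Klf4 added. None of these 4 passed without pericyte-marked nuclei (edgeR adjusted p from 0.254 to 0.673) or in unmarked nuclei alone (0.505 to 0.700).
Many of these calls depended on the mice and nuclei used. With unmarked nuclei alone (25 mice) Ly6a, Ly6c1, Ly6e, Itih5 and Sparc (edgeR adjusted p = 0.000516) passed. Lrp8 (0.112), Tfrc (0.392), Cxcl12 (0.255), Ivns1abp (0.400), Vwf (0.411), Plat (0.498), B2m (0.100), Klf6 (0.472), Cd34 (0.249) and Fzd6 (0.434) did not, and Vegfc, Alpl, Mgll and Ly6c2 were not among the genes tested. Without batch 3 Tfrc, Alpl (0.0615), Vwf (0.0502), Cd34 (0.0916) and Fzd6 (0.0826) did not pass, and without neuron-marked nuclei Alpl (0.0718) and Cd34 (0.0552) did not. Without pericyte-marked nuclei Cxcl12 (0.128), Ivns1abp (0.541), Vwf (0.276), Tfrc (0.286), Fzd6 (0.195) and Mgll (0.313) did not pass.

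Markers of other cell types were read in the same fit. Of 15 endothelial, 11 pericyte, 4 smooth muscle, 1 fibroblast, 1 macrophage, 5 astrocyte and 10 projection neuron genes tested, 0 passed, as did 0 of 1 precursor gene. Of 4 oligodendrocyte genes 2 passed, of which 1 is described. St18 was highest in NOD/ShiLtJ (154 CPM ± 57.1, SD, n = 4) and A/J (144 CPM ± 66.1, SD, n = 3) and lowest in C57BL/6NJ (1.38 CPM ± 2.77, SD, n = 4; adjusted p = 8.7e-05). Without pericyte-marked nuclei it did not pass (edgeR adjusted p = 0.108). Of 1 ependymal gene 1 passed, Cfap54 (adjusted p = 0.0066), which stood at 121 CPM in neuron-marked nuclei and 19.8 CPM in unmarked nuclei. Cfap54 did not pass without pericyte-marked nuclei (edgeR adjusted p = 0.0714) and was not among the genes tested without neuron-marked nuclei. The part of oligodendrocyte RNA in the strain differences was not tested.

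Contrasts of single strains with the average of the 7 others followed, and these share mice. CAST/EiJ had most calls, with 78 genes higher (1.56%) and 43 lower (0.862%), and PWK/PhJ had 40 higher (0.802%) and 21 lower (0.421%). This order turned without batch 4, with 63 calls for CAST/EiJ and 146 for PWK/PhJ, and with unmarked nuclei alone the counts were 24 and 25. C57BL/6NJ had 13 higher (0.261%) and 3 lower (0.0602%), and 129S1/SvImJ 11 higher (0.221%) and 1 lower (0.0201%). A/J had 7 higher (0.14%) and 2 lower (0.0401%), NOD/ShiLtJ 7 higher (0.14%) and 3 lower (0.0602%), WSB/EiJ 7 higher (0.14%) and 1 lower (0.0201%), and NZO/HlLtJ 4 higher (0.0802%) and 0 lower (0.0%).
Genes whose mice in 1 strain all lay outside the range of the others were found for 5 strains. In A/J Cthrc1, a secreted protein linked to collagen and Wnt signalling, had 103 to 152 CPM against at most 84.0 CPM in the other 26 mice (log2 fold change 2.62, adjusted p = 0.000374). The axonemal dynein gene Dnah8 had 110 to 135 CPM there against at most 88.0 CPM (log2 fold change 2.22, adjusted p = 0.00478). Both rest on few molecules, 82 and 73 UMIs over 3 mice, and neither passed without batch 1 (edgeR adjusted p = 0.122 for Cthrc1 and 0.135 for Dnah8). Dnah8 did not pass without batch 2 (0.466), batch 4 (0.0564) or the A/J mouse of batch 2 (0.279) either.
In NOD/ShiLtJ the transcription factor Zbtb16 was lower, at 20.8 CPM ± 14.7 (SD, n = 4) against 170 CPM ± 109 (SD, n = 25), a log2 fold change of -2.71 (adjusted p = 0.0288). The NOD/ShiLtJ value rests on 10 UMIs over the 4 mice. The 2 groups did not overlap by a small margin, 34.4 against 34.5 CPM, and the gene did not pass without neuron-marked nuclei (adjusted p = 0.274) or without batch 2, 3 or 4 (edgeR adjusted p = 0.228, 0.076 and 0.0789). In PWK/PhJ Ndufaf4, an assembly factor of mitochondrial complex I, was lower, at 21.1 CPM ± 9.27 (SD, n = 4) against 74.3 CPM ± 27.3 (SD, n = 25; log2 fold change -1.81, adjusted p = 0.0188), from 7 UMIs over the 4 PWK/PhJ mice. It did not pass with DESeq2 (adjusted p = 0.0911), nor with any 1 batch left out (edgeR adjusted p from 0.0526 to 0.137).

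Strain differences of endothelium were set against those of astrocytes from the same mice. The interaction of strain and cluster passed for 82 of 7979 genes (1.03%) in edgeR with the mouse as a block. Per-mouse levels in this comparison are TMM-scaled over the sums of both clusters together, so endothelial values differ from those given above. Nxpe4 differed between strains in endothelium, from 27.6 CPM ± 18.4 in A/J to 410 CPM ± 54.96 in CAST/EiJ (SD, n = 3 each), whereas in astrocytes its strain means ran from 75.2 to 126 CPM (interaction, adjusted p = 5.02e-07).
Itih5 had strain means of 47.0 to 380 CPM in endothelium and of 53.5 to 156 CPM in astrocytes, and WSB/EiJ, the highest strain in astrocytes (156 CPM ± 62.3, SD, n = 3), was among the low strains in endothelium (130 CPM ± 39.3; adjusted p = 7.85e-07).
Of the other leading genes, 2 are described, and both were higher in neuron-marked than in unmarked nuclei. The adhesion gene Cntn4 was high in astrocytes of CAST/EiJ alone, at 1057 CPM ± 77.7 (SD, n = 3) against at most 29.3 CPM in the mean of another strain, while endothelial sums had 197 to 761 CPM (adjusted p = 1.04e-12). Cntn4 stood at 1200 CPM in neuron-marked nuclei and 75.4 CPM in unmarked nuclei. The synaptic vesicle gene Unc13c was lowest in astrocytes of PWK/PhJ (57.2 CPM ± 32.4, SD, n = 4) and highest in its endothelial sums (480 CPM ± 126; adjusted p = 7.85e-07). Unc13c stood at 510 CPM in neuron-marked nuclei, against 126 CPM in unmarked nuclei. With Drd1+ neurons in place of astrocytes, Cntn4 and Unc13c no longer passed, whereas Nxpe4 and Itih5 did.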

How the data were processed

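Nuclei of 32 mice were profiled in 4 pooled batches by combined RNA and chromatin sequencing (10x Multiome). The authors deposited raw UMI counts per gene and barcode. The submitters' processing notes name bcl2fastq 2.20.0.422, Cell Ranger ARC 2.0.0 and the build mm10/GRCm38. Per the labels' protocols, nuclei were assigned to strains with Demuxlet, kept with over 200 and under 7500 genes and under 15% mitochondrial counts, and passed through DoubletFinder. The deposited categories of batch, strain and cluster, other than counts, were used unchanged, with no further doublet caller. The deposited peak coordinates do not state whether they count from 0 or 1.

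Counts were summed per mouse (at least 10 nuclei, 29 mice, 22866 to 433270 counts over all 32). They were tested with edgeR 4.0.16 in R 4.3.3 (TMM, expression filter by strain, robust quasi-likelihood, strain and batch terms, Benjamini-Hochberg threshold 0.05). DESeq2 1.42.0 was an alternative. Per-mouse shares were tested by 100000 permutations of strain within batch with numpy 2.4.6. The labels make a batch a shared pool, so batch was the block. On simulated counts the strain term recovered 35.4% of 2-fold and 99.0% of 4-fold changes over 4682 genes, with 3.62% of calls false. The simulation was a single draw with no batch differences and no mixed kinds of nuclei, and its dispersions followed the trend. These rates may therefore not hold for the real counts.

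The members and gene lists were chosen with earlier results of these data known. Named were the 15 genes with the largest ratio of endothelium to other nuclei (at least 50 CPM), the 12 called genes with the largest F (highest strain mean at least 20 CPM), for each strain the 2 called genes with the largest change whose mice all lay outside the range of the others, the 5 leading interaction genes, and called list members. Sex was not modelled. Replicates are separate mice. Intervals cover counting error only. Results of some genes that the rule names are not reported here.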

Additional observations from a re-analysis of the deposited data

Results flagged for a closer look

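For 4 of the genes named for strain differences, 1 mouse of a strain differed from the other mice of that strain by most of the strain's range. Cwc22 was 98.3 CPM in the NOD/ShiLtJ mouse of batch 3, against at most 34.4 CPM in the other mice of that strain. B530045E10Rik was 17.8 CPM in the C57BL/6NJ mouse of batch 3, 11.5 CPM in the NOD/ShiLtJ mouse of batch 1 and 52.5 CPM in the NZO/HlLtJ mouse of batch 3, and 0 in the other mice of these strains. Nxpe4 was 158 CPM in the NZO/HlLtJ mouse of batch 3, against 32.6 to 53.0 CPM. Catspere1 was 5.53 CPM in the C57BL/6NJ mouse of batch 1, against 0, and 303 CPM in the PWK/PhJ mouse of batch 3, against 116 to 139 CPM. Such a mouse was found in 7 of 82 groups of 4 mice. Chance gives about 5% for continuous values, a share that does not apply to the 4 groups whose other mice are all at 0, where the B530045E10Rik values rest on 1, 1 and 3 UMIs and the Catspere1 value of C57BL/6NJ on 1 UMI. Strain differences were not the same in endothelium and astrocytes for these named genes by the edgeR interaction test: Cntn4 (adjusted p = 1.04e-12), Nxpe4 (5.02e-07), Itih5 (7.85e-07) and Unc13c (7.85e-07). Of these, Cntn4 and Unc13c were higher in neuron-marked than in unmarked nuclei. Both lost the call with Drd1+ neurons in place of astrocytes.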

How the results depend on the processing

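The number of genes tested differs between settings, so the counts here and those of the contrasts are not shares. The strain term called 161 of 4986 tested genes. It called 527 of 20631 without the expression filter and 71 of 4986 with no replicate block (batch left out of the model). Without pericyte-marked nuclei it called 104 of 2627, and with unmarked nuclei alone 26 of 1196. With 1 batch left out it called 63 to 138, the lowest being 68 of 4347 and 63 of 4189 without batches 1 and 2. Genes called in at least 1 contrast of a strain with the other 7 numbered 202, and 470, 109, 132 and 53 under those 4 settings, and 85 to 223 with a batch left out. For CAST/EiJ, PWK/PhJ, WSB/EiJ, 129S1/SvImJ, A/J, C57BL/6NJ, NOD/ShiLtJ and NZO/HlLtJ in this order, contrasts called 229, 130, 34, 45, 41, 43, 34 and 43 genes without the filter, and 72, 30, 2, 3, 4, 4, 3 and 0 with no replicate block. With unmarked nuclei alone they called 24, 25, 5, 4, 1, 3, 0 and 0. Without pericyte-marked nuclei 129S1/SvImJ had 7, A/J 3, C57BL/6NJ 9, CAST/EiJ 73, NOD/ShiLtJ 5 and WSB/EiJ 4 calls. Without neuron-marked nuclei NOD/ShiLtJ had 6, NZO/HlLtJ 15 and WSB/EiJ 23. With at least 20 nuclei per mouse NOD/ShiLtJ had 2 and PWK/PhJ 19, DESeq2 gave NZO/HlLtJ 2, PWK/PhJ had 40 without mural-signal nuclei, and A/J had 3 without its mouse of batch 2. Leaving out a batch gave 1 to 14 calls for 129S1/SvImJ, 0 to 8 for A/J, 3 to 19 for C57BL/6NJ, 52 to 117 for CAST/EiJ, 2 to 10 for NOD/ShiLtJ, 1 to 7 for NZO/HlLtJ, 22 to 146 for PWK/PhJ and 3 to 6 for WSB/EiJ. The interaction called 82 of 7979 tested genes, 226 of 23805 without the filter, 239 of 10064 against oligodendrocytes and 177 of 14732 against Drd1+ neurons. It called 119 of 7979 with no replicate block and 15 to 164 with a batch left out. Permutation p-values with a batch left out ran from 0.23 to 0.826 for the share of nuclei, from 0.0156 to 0.563 for median UMIs and from 0.29 to 0.978 for the pericyte ratio, and with no replicate block they were 0.887, 0.451 and 0.977. Over the alternatives in which a named gene was tested, the call was kept in 158 of the strain term's values and lost in 2. It was kept in 55 of the interaction's values and lost in 5, and these tests carry no direction. Alternatives in which a gene was not tested are not counted, and the genes were picked by the main fit. The contrasts kept direction and call in 94 and lost the call in 17. Cxcl12, Sparc and B2m did not pass with no replicate block (edgeR adjusted p = 0.490, 0.433 and 0.795), nor did Tfrc, Fzd6, Vegfc, Klf6, Cd34, Vwf, Alpl and Cfap54 (0.0749 to 0.530). The causes were not tested. Mice with few nuclei limit the depth, and 3 of batch 3 were left out.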
